A study of Homo sapiens with 24 samples.

Results

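The MYC, MAX and MXD network was followed here through 10 genes, chosen by name (MYC, MYCN, MAX, MXD1, MXD3, MXD4, MXI1, MNT, MGA and MLX) out of 23368 genes counted in AGS, a human cell line established from a gastric adenocarcinoma and labelled WT (wild type). The mRNA of 24 samples was sequenced 24 h after kinase inhibitors were added, with 4 replicates in each of 6 groups and the replicate number given as the batch. The groups were a control with no inhibitor, PI103 (an inhibitor of PI3 kinase and mTOR) at 0.7 µM, PD0325901 (an inhibitor of the ERK kinase MEK) at 0.035 µM, (5Z)-7-oxozeaenol (an inhibitor of the kinase TAK1, written oxozeaenol) at 0.5 µM, and the 2 pairs of PI103 plus oxozeaenol and PI103 plus PD0325901. The paired inhibitors were used at 50% of their single concentrations, so a combination and its single agents differ in dose as well as in agents. Whether control cells received vehicle is not said in the labels, and all groups come from this 1 line. The replicates are called biological, but nothing says that they were separate cultures, so p-values measure the spread between these samples.

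MYC and MYCN are transcription factors that bind DNA as dimers with MAX, mostly at the E-box CACGTG, and raise genes of growth, ribosome assembly and metabolism. The MXD proteins (MXD1, MXD3, MXD4 and MXI1), MNT and MGA also dimerise with MAX, occupy the same sites and repress transcription there, the MXD proteins through the SIN3 and histone deacetylase corepressor. MLX is the partner of the glucose-sensing factors MondoA (MLXIP) and ChREBP (MLXIPL) and can also dimerise with MNT and some MXD proteins. In epithelial and many other cells MXD genes are known as markers of growth arrest and differentiation. ERK phosphorylates and stabilises the MYC protein, while phosphorylation by GSK3, which AKT restrains, sends it to the ubiquitin ligase FBXW7. These are properties of proteins, and only RNA was measured here.

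Libraries held 38057638 to 84226380 counts in genes. The 6 epithelial markers summed to between 4624 and 7533 CPM (counts-per-million of the scaled library), and the 2 endothelial markers to at most 0.182 CPM. The 4 blood cell markers, of which 3 averaged under 1 CPM and 1 was at 0 in all libraries, summed to 1.12 to 3.54 CPM in the PD0325901 group, 1.33 to 2.12 CPM in its pair with PI103 and 0.635 to 1.39 CPM in the other 4 groups. The fibroblast list summed to 13.9 to 17.0 CPM in control, 32.1 to 34.2 CPM in the PI103 group, 17.5 to 21.0 CPM in the PD0325901 group and 7.93 to 9.65 CPM in the oxozeaenol group. In the pairs it summed to 8.78 to 10.7 CPM (PI103 with oxozeaenol) and 20.7 to 24.5 CPM (PI103 with PD0325901). Of its 3 genes, 2 (COL1A2 and DCN) were under 1 CPM and COL1A1 made up the rest, and the part of either list in the results was not tested. DUSP6, a direct readout of ERK signalling, fell from 132 ± 13.4 CPM in control to 3.60 ± 1.33 CPM under PD0325901 (SD, n = 4 each). Its log2 change was -5.18 there and -5.08 in the pair with PI103, against -1.43 with PI103, -2.54 with oxozeaenol and -1.91 with both of these. The batch 2 libraries of both groups that received PD0325901 correlated least with the rest of their group (r = 0.990 each, against 0.991 for oxozeaenol replicate 4 and 0.994 to 0.997 for the others), so results of those groups are also given without those 2 libraries, an alternative chosen after the data had been seen.

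By exon length in the GENCODE annotation of GRCh38, MYC was the most abundant of the 10 transcripts in control, at 97.6 ± 11.4 RPKM (CPM per kilobase of exon; SD, n = 4). MLX followed at 16.7 ± 2.01 RPKM and MAX at 15.3 ± 0.639 RPKM (SD, n = 4 each). The antagonists were all under 5 RPKM, from MXD1 at 4.86, MXI1 at 3.02, MGA at 1.92, MXD4 at 1.43 and MNT at 1.23 down to MXD3 at 0.976. MYCN was the lowest at 0.322 ± 0.110 RPKM (SD, n = 4). All values are sums over the exons of a whole gene, so isoforms of MAX or MXI1 are not separated. Some exon length is shared with genes on the same strand in MXD1 (SNRNP27, 3.73%) and MXD4 (MIR4800, 1.13%). Genes on the opposite strand lie over 4.45% of MXI1, 4.15% of MAX and 2.89% of MGA exon length.

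Promoters were read for the genes that are themselves E-box factors. Windows of 250 bases upstream of RefSeq start sites (GRCh38.p14) were read for 9 of the 10 genes, and none was read for MYC. Of the 14 windows of these 9 genes, 3 held the letters CACGTG, a palindrome that reads the same on both strands. Of all 35116 such windows, 6.345% held it. The 3 are printed because they carry the network's own recognition sequence, with the E-box in capitals. The windows are chr4:2262110-2262359 on the minus strand for MXD4 (E-box 238 bases before the start), chr17:2401061-2401310 on the minus strand for MNT (193 bases before) and chr17:42566850-42567099 on the plus strand for MLX (50 bases before).
MXD4: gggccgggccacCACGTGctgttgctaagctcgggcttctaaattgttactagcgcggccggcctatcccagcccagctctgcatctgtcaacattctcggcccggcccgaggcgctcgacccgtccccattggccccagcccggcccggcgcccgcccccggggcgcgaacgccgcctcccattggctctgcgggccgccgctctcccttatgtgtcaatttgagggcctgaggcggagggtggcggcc
MNT: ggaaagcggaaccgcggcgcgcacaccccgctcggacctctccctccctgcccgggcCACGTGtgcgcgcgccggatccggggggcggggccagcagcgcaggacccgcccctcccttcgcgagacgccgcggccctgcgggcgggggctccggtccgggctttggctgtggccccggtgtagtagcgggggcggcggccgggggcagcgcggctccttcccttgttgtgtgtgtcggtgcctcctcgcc
MLX: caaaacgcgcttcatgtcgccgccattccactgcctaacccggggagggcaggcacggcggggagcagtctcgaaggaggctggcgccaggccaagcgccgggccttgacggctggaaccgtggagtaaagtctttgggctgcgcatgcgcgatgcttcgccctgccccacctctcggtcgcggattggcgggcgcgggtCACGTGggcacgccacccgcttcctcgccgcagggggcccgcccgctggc
A FOXO core (GTAAACA or its reverse complement TGTTTAC) was found in 1 of the 3 MXI1 windows, 151 bases before the start, against 2.979% of all windows. The E2F core (GCGGGAA or TTCCCGC) was in none of the 14, against 5.516% of all windows. These matches describe letters only, and binding was not measured.

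All 10 genes passed the filter on low counts. At an adjusted p under 0.05 (edgeR's two-sided quasi-likelihood test over 13947 genes), 8 of the 10 changed with PI103 (4 up, 4 down), where 51.4% of all tested genes changed (26.2% up, 25.2% down). Under PD0325901 the count was 7 (3 up, 4 down), against 58.6% of all genes (28.7% up, 29.9% down). Under oxozeaenol it was 8 (4 up, 4 down), against 51.9% (25.7% up, 26.1% down). The pair with oxozeaenol gave 9 (5 up, 4 down), against 55.6% (27.7% up, 27.9% down), and the pair with PD0325901 gave 7 (4 up, 3 down), against 64.8% (32.2% up, 32.6% down). The last count lies near its background, and with 10 genes the others exceed theirs by few genes. The genes were chosen with earlier results of these data known, so no excess of them over all genes is independent evidence. The median absolute log2 change of the 10 was 0.54, 0.38, 0.52, 0.75 and 0.79 in the 5 treatments in this order, against 0.35, 0.40, 0.34, 0.37 and 0.47 over all genes. All 5 comparisons share the 4 control libraries. MYC and MAX fell and MYCN and MNT rose in each of them, and these calls held in every fit made without 1 library. Because these are bulk libraries, fewer cells expressing a gene and less of its RNA per cell cannot be told apart.

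**Figure D1:**
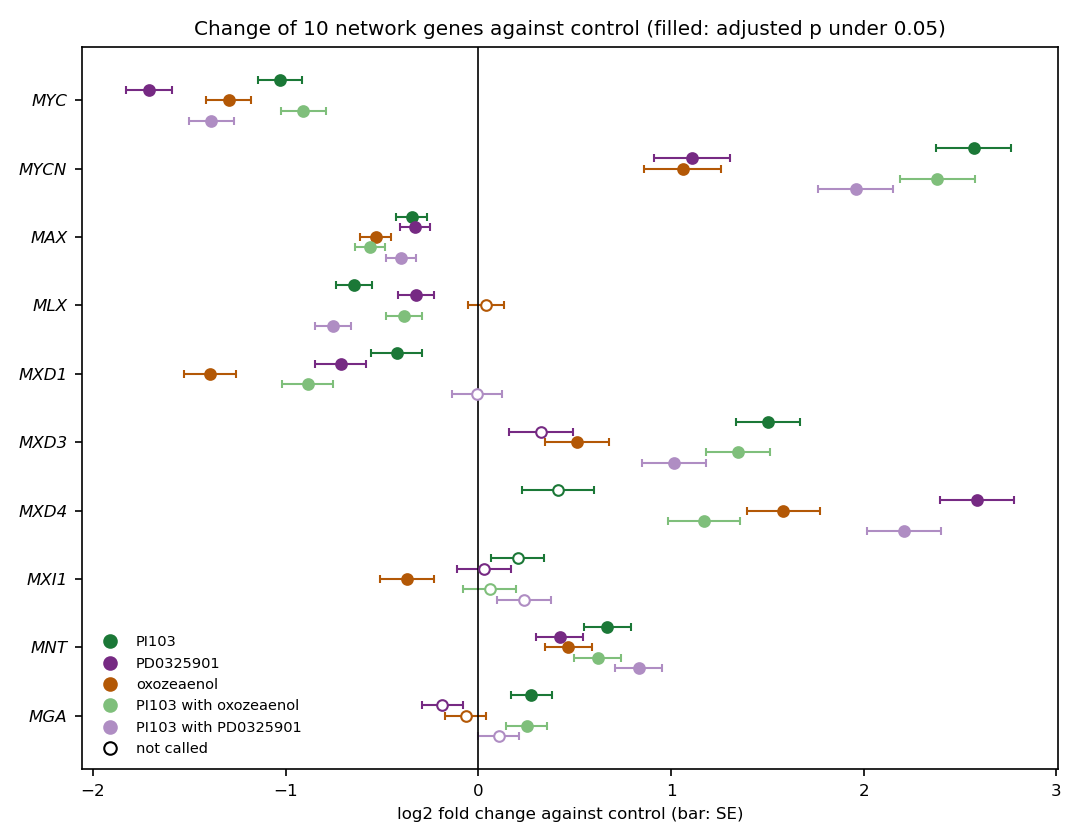
Log2 fold change of each of the 10 genes against control (horizontal axis) by gene (vertical axis) for the 5 treatments, with bars of 1 standard error and filled symbols for an adjusted p under 0.05. MYC and MAX lie left of 0 and MYCN and MNT right of 0 in all 5, and MXD1 and MXD4 lie on opposite sides of 0 in the 3 single agents.

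MYC (chromosome 8, 127735434 to 127741434, plus strand, with no other gene over its exons) fell under every inhibitor. Control libraries held 301, 294, 247 and 330 CPM in batches 1 to 4. With PI103 they held 153, 152, 136 and 133 CPM, and with PD0325901 102, 67.5, 99.0 and 89.9 CPM. With oxozeaenol they held 132, 122, 125 and 99.0 CPM. No treated library reached the lowest control. In the combinations the values were 166, 154, 159 and 145 CPM with PI103 and oxozeaenol, and 126, 98.3, 119 and 105 CPM with PI103 and PD0325901. MYC was thus lowest with PD0325901 and highest, among the treated groups, with PI103 and oxozeaenol. It fell by 1.71 on the log2 scale with PD0325901 (SE 0.117, adjusted p 6.28e-12), a 3.27-fold lower level. It fell by 1.29 (SE 0.116, adjusted p 1.37e-09) with oxozeaenol and by 1.03 (SE 0.115, adjusted p 4.91e-08) with PI103. Of the pairs, the one with oxozeaenol lowered it by a log2 change of -0.91 (adjusted p 2.61e-07) and the one with PD0325901 by one of -1.39 (adjusted p 1.27e-10). The fall was seen within 4 of 4 batches in each treatment. Without the batch 2 libraries its change was -1.6 with PD0325901 and -1.33 with PI103 and PD0325901.

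In order of level the groups ran control, PI103 with oxozeaenol, PI103, oxozeaenol, PI103 with PD0325901 and PD0325901. Neighbours were less distinct than the treated groups were from control. PI103 with oxozeaenol lay 0.12 above PI103 (adjusted p 0.515, 95% interval -0.10 to 0.34). PI103 lay 0.27 above oxozeaenol (adjusted p 0.0612, and 0.0345 with the batch as a block), and this was also called without oxozeaenol replicate 1 (0.32, adjusted p 0.042) or PD0325901 replicate 2 (0.26, 0.0379). Oxozeaenol and PI103 with PD0325901 were not compared. PI103 with PD0325901 lay 0.32 above PD0325901 (adjusted p 0.049), a call that was lost in 20 of the 24 fits made without 1 library, with an adjusted p of up to 0.206 (without PD0325901 replicate 2).

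MYCN, the paralogue best known from the nervous system and neuroblastoma, moved the other way from a very low level. The gene lies on chromosome 2 (15940564 to 15947007, plus strand). It held 1.04, 0.671, 1.12 and 0.525 CPM in control. With PI103 it held 4.03, 5.24, 5.31 and 5.48 CPM, and with PI103 and oxozeaenol 4.82, 3.54, 4.63 and 4.60 CPM. All 3 groups that received PI103 stood above every other library, since PI103 with PD0325901 held 3.68, 2.94, 3.14 and 3.35 CPM. PD0325901 held 1.71, 2.25, 1.45 and 1.88 CPM and oxozeaenol 1.62, 1.77, 1.70 and 1.94 CPM, both also above all controls. MYCN rose by 2.57 (SE 0.194, adjusted p 6.46e-11) with PI103. In the pairs it rose by 2.38 (PI103 with oxozeaenol, adjusted p 1.74e-10) and by 1.96 (PI103 with PD0325901, adjusted p 2.35e-09). It rose by 1.11 (SE 0.197, adjusted p 2.87e-05) with PD0325901 and by 1.06 (SE 0.198, adjusted p 7.83e-05) with oxozeaenol. PI103 exceeded PD0325901 by 1.46 (adjusted p 3.93e-07) and oxozeaenol by 1.51 (adjusted p 3.66e-07), whereas oxozeaenol and PD0325901 differed by -0.05 (adjusted p 0.871, 95% interval -0.42 to 0.32). PI103 plus oxozeaenol lay below PI103 by -0.19 (adjusted p 0.502), and the 2 pairs were not compared. Each library held between 36 and 374 MYCN counts. Of its exon length, 3.77% lies opposite the antisense gene MYCNOS, whose reads could add to it if strand was not used in counting. Per length, MYCN reached 4.06% ± 0.764 of the MYC level with PI103 (SD, n = 4), against 0.342% ± 0.150 (SD, n = 4) in control.

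MAX (chromosome 14, 65006174 to 65102695, minus strand), the partner that both arms need, fell by less than MYC. Control libraries held 71.5, 68.1, 64.6 and 67.5 CPM, and the 20 treated libraries held 43.0 to 58.3 CPM, without overlap. It fell by 0.35 (SE 0.0790, adjusted p 0.000656) with PI103, 0.33 (adjusted p 0.000872) with PD0325901 and 0.53 (adjusted p 3.71e-06) with oxozeaenol. The changes in the pairs were -0.56 (PI103 with oxozeaenol, adjusted p 1.31e-06) and -0.40 (PI103 with PD0325901, adjusted p 8.48e-05). The treated groups were closer to each other. With the batch as a block, MAX was lower with oxozeaenol than with PI103 (adjusted p 0.0155, or 0.0581 without it) and than with PD0325901 (0.0127, or 0.0531 without it), and lower with PI103 and oxozeaenol than with PI103 alone (0.0128, or 0.0568 without it). Without the block, these 3 differences were called in 3, 4 and 4 of the 24 fits made without 1 library. A stricter filter on low counts called all 3 (adjusted p 0.0432, 0.0364 and 0.0365 in this order). RLE scaling (0.0496) and DESeq2 (0.0352) called only the difference between oxozeaenol and PD0325901.

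MLX separated the inhibitors. Control libraries held 64.7, 73.2, 63.7 and 82.1 CPM and oxozeaenol libraries 70.1, 69.4, 80.6 and 71.8 CPM. PI103 libraries held 46.5, 46.1, 42.9 and 45.8 CPM and PI103 with PD0325901 40.9, 39.3, 41.7 and 46.4 CPM. PD0325901 libraries held 58.8, 45.5, 60.5 and 61.9 CPM and PI103 plus oxozeaenol 54.8, 55.3, 50.4 and 56.4 CPM. Oxozeaenol libraries thus lay within the control range, and every other treated library lay below it. MLX fell by 0.65 (SE 0.0925, adjusted p 2.13e-06) under PI103, by 0.32 (adjusted p 0.00394) under PD0325901 and by 0.75 (adjusted p 9.85e-08) under both. It fell by 0.39 (adjusted p 0.000912) under PI103 plus oxozeaenol. With oxozeaenol the difference from control was 0.04 (adjusted p 0.734, 95% interval -0.14 to 0.22). PI103 lay below oxozeaenol by a log2 difference of -0.69 (adjusted p 1.54e-06). PI103 with oxozeaenol lay 0.26 above PI103 (adjusted p 0.0503, and 0.0291 with the batch as a block), a difference called in 11 of the 24 fits made without 1 library. PSMC3IP lies opposite 18.08% of MLX exon length (chromosome 17, 42567068 to 42573239, plus strand), and its change was -0.57 under PI103, -0.83 under PD0325901, -0.79 under both, -0.03 under oxozeaenol and 0.06 under PI103 plus oxozeaenol. Since the use of strand is not stated, the part of its reads in these values was not tested.

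**Figure D2:**
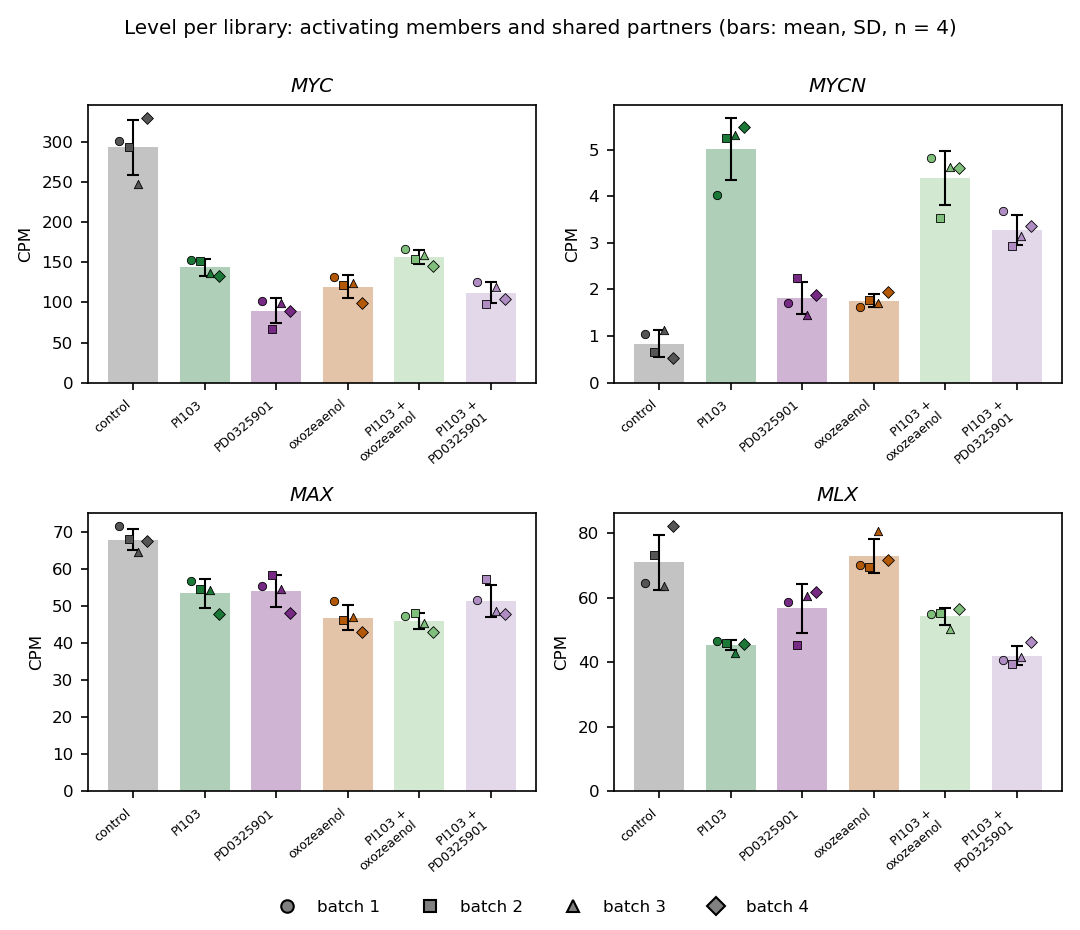
CPM of MYC, MYCN, MAX and MLX in each library (points, shaped by batch) with the group mean (bar) and SD (n = 4), by group on the horizontal axis. MYC is at 247 CPM or more only in control, MYCN is highest in the 3 groups with PI103, and MLX stays at 69.4 CPM or more with oxozeaenol.

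MXD1, the MXD gene that is typically switched on in differentiating epithelium and blood cells, fell with each single inhibitor. Control libraries held 31.7, 30.2, 29.7 and 32.0 CPM. PI103 libraries held 25.5, 19.8, 24.9 and 21.9 CPM, PD0325901 libraries 18.1, 26.7, 14.3 and 16.3 CPM, and oxozeaenol libraries 12.4, 11.3, 11.0 and 12.3 CPM. All of these lay below all controls. PI103 with oxozeaenol held 17.9, 14.4, 16.4 and 18.2 CPM, but PI103 with PD0325901 held 29.1, 36.0, 28.9 and 29 CPM and overlapped the controls. MXD1 fell by 0.42 (SE 0.131, adjusted p 0.00851) with PI103, by 0.71 (SE 0.132, adjusted p 4.69e-05) with PD0325901 and by 1.39 (SE 0.135, adjusted p 4.98e-09) with oxozeaenol. Under PI103 plus oxozeaenol its change was -0.89 (adjusted p 3.31e-06), also called. With PI103 and PD0325901 the difference from control was -0.01 (adjusted p 0.97, 95% interval -0.26 to 0.25). That combination exceeded PD0325901 by 0.71 (adjusted p 0.000601) and PI103 by 0.42 (adjusted p 0.0134). The call against PI103 was lost without PI103 replicate 2 (0.35, adjusted p 0.0587) or without the combination's own replicate 2 (0.33, adjusted p 0.0681). Without the batch 2 libraries of both PD0325901 groups, the combination exceeded PI103 by 0.33 (adjusted p 0.00854) and PD0325901 by 0.84 (adjusted p 4.35e-06), and it differed from control by -0.09 (adjusted p 0.424). PI103 lay 0.29 above PD0325901 (adjusted p 0.0763), which was called without PD0325901 replicate 2 (0.47, adjusted p 0.000862) or PI103 replicate 2 (0.36, 0.0445).

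MXD3, unusual among MXD genes in being expressed in S phase of dividing cells, rose wherever PI103 was given. Control libraries held 5.88, 5.10, 3.98 and 5.16 CPM, and PI103 libraries held 14.4, 15.1, 13.9 and 13.6 CPM. PI103 with oxozeaenol held 13.8, 11.3, 13.4 and 12.6 CPM, and PI103 with PD0325901 held 11.8, 6.22, 11.5 and 11.1 CPM. Oxozeaenol libraries held 7.50, 7.13, 7.89 and 6.21 CPM and PD0325901 libraries 5.91, 4.50, 7.13 and 7.60 CPM, of which the latter overlapped control. MXD3 rose by 1.51 (SE 0.166, adjusted p 3.65e-08) under PI103. In the pairs it rose by 1.35 (PI103 with oxozeaenol, adjusted p 1.61e-07) and by 1.01 (PI103 with PD0325901, adjusted p 6.9e-06). Oxozeaenol alone gave a rise of 0.51 (adjusted p 0.0117). With PD0325901 the change was 0.33 (adjusted p 0.0952), but it rose by 0.48 (adjusted p 0.0115) without PD0325901 replicate 2 and by 0.46 (adjusted p 0.00185) without the batch 2 libraries of both groups. It was also called without replicate 2 of the combination (0.33, adjusted p 0.0351). PI103 exceeded PD0325901 by 1.18 (adjusted p 1.92e-06) and oxozeaenol by 0.99 (adjusted p 2.57e-05). MXD3 (chromosome 5, 177301461 to 177312757, minus strand) shares 17.97% of its exon length with RAB24 on the same strand and 22.47% with PRELID1 on the opposite strand. Both neighbours fell in all 5 treatments, RAB24 by 0.56 and PRELID1 by 0.48 with PI103. The part of their reads in the MXD3 values was not tested.

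MXD4 showed the largest rise among the antagonists, and was highest in the PD0325901 group where MXD3 was highest in the PI103 group. It held 9.23, 10.4, 8.39 and 12.2 CPM in control and 49.9, 76.2, 58.4 and 57.8 CPM with PD0325901. Oxozeaenol libraries held 24.8, 32.0, 29.9 and 34.0 CPM, and PI103 libraries 12.3, 13.9, 12.7 and 14.8 CPM. The PI103 group lay only just above the controls, while the lowest PD0325901 library was above every oxozeaenol library. PI103 with oxozeaenol held 24.1, 18.1, 23.2 and 25.5 CPM, and PI103 with PD0325901 39.5, 73.6, 35.2 and 38.2 CPM. MXD4 rose by 2.59 (SE 0.193, adjusted p 7.92e-11) with PD0325901, a 6.01-fold higher level, and by 1.58 (SE 0.188, adjusted p 2.45e-07) with oxozeaenol. In the pairs it rose by 2.21 (PI103 with PD0325901, adjusted p 5.59e-10) and by 1.17 (PI103 with oxozeaenol, adjusted p 1.16e-05). With PI103 the change was 0.42 (adjusted p 0.0672, and 0.0349 with the batch as a block). That change was also called without control replicate 4 (0.52, adjusted p 0.0375) or without replicate 2 of PI103 with PD0325901 (0.42, adjusted p 0.00951).

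The single agents differed from each other in MXD4. PI103 lay below PD0325901 by a log2 difference of -2.17 (adjusted p 2.39e-09) and below oxozeaenol by one of -1.17 (adjusted p 2.25e-05). Oxozeaenol lay below PD0325901 by one of -1.0 (adjusted p 0.000314). Without the batch 2 libraries, MXD4 rose by 2.46 under PD0325901 alone and by 1.90 in its pair with PI103. The combination then lay below PD0325901 by -0.56 (adjusted p 0.00301), where all libraries gave -0.38 (adjusted p 0.147). The call also appeared without replicate 2 of the combination alone (-0.69, adjusted p 0.00103). PI103 plus oxozeaenol lay below oxozeaenol by -0.41 (adjusted p 0.133), which was called without that same library (0.0266) and without the batch 2 libraries (0.0106). Oxozeaenol and PI103 plus PD0325901 were not compared. Its window printed above is on chromosome 4, where the gene spans 2247432 to 2262294.

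MXI1 (also called MXD2) changed least of the MXD genes. Control libraries held 13 to 15 CPM, oxozeaenol libraries 8.77 to 11.9 CPM and the other treated libraries 10.5 to 18.7 CPM. Only the oxozeaenol group lay wholly below control. MXI1 fell by 0.37 with oxozeaenol (SE 0.140, adjusted p 0.0301). The call was lost without control replicate 1 (-0.33, adjusted p 0.0803), control replicate 3 (-0.35, 0.0691) or oxozeaenol replicate 4 (-0.28, 0.121). The other 4 changes lay between 0.03 and 0.24, and that of PI103 with PD0325901 (0.24, adjusted p 0.136) was called with the batch as a block (0.0425) and without replicate 4 of that group (0.33, adjusted p 0.0468).

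MNT, the broadly expressed antagonist that is regarded as the main counterweight to MYC in dividing cells, rose in all 5 treatments. Control libraries held 13.2, 10.6, 10.0 and 9.16 CPM. PI103 with PD0325901, the group with the highest mean, held 20.3, 19.4, 20 and 16.6 CPM, and PI103 held 16, 17.5, 15.7 and 19.0 CPM. PI103 with oxozeaenol held 15.1 to 18.3 CPM, PD0325901 12.4 to 17.6 CPM and oxozeaenol 12.3 to 17.2 CPM. The 3 groups with PI103 lay above all controls, and the other 2 overlapped them. MNT rose by 0.83 (SE 0.121, adjusted p 1.46e-06) under PI103 plus PD0325901, 0.67 (adjusted p 5.28e-05) under PI103 and 0.62 (adjusted p 0.000113) under PI103 plus oxozeaenol. Oxozeaenol alone raised it by 0.47 (adjusted p 0.00243) and PD0325901 alone by 0.42 (adjusted p 0.00421). PI103 with PD0325901 lay 0.16 above PI103 (adjusted p 0.302), and no difference between single agents passed the test. PI103 lay 0.25 above PD0325901 (adjusted p 0.101, unadjusted p 0.052, 95% interval 0.01 to 0.48). The 95% intervals are normal approximations from the SE and are narrower than the test implies. The difference between PI103 and PD0325901 was called at an adjusted p of 0.0305 without PD0325901 replicate 1. PI103 lay 0.20 above oxozeaenol (adjusted p 0.178, 95% interval -0.03 to 0.44). Oxozeaenol lay 0.04 above PD0325901 (adjusted p 0.819, 95% interval -0.20 to 0.28). An antisense gene (AC006435.1) lies opposite 12.2% of MNT exon length (chromosome 17, 2384060 to 2401118, minus strand).

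MGA, a very large protein that joins a MAX-binding and a T-box domain and scaffolds a Polycomb repressor complex, moved little. Control libraries held 28.9 to 39.4 CPM, PI103 libraries 39.3 to 43.9 CPM, PI103 with oxozeaenol 38.2 to 43.5 CPM and the other treated libraries 24.2 to 40.5 CPM. No group was free of overlap with control. MGA rose by 0.27 with PI103 (SE 0.107, adjusted p 0.0336) and by 0.25 with PI103 and oxozeaenol (adjusted p 0.0483). Both calls were weak. The first was lost without replicate 1 (0.27, adjusted p 0.0613), 2 (0.20, 0.141) or 4 (0.27, 0.0632) of control or replicate 1 (0.27, 0.0646) or 3 (0.24, 0.0941) of PI103, and the second in 16 of the 24 fits made without 1 library, with an adjusted p of up to 0.18 (without control replicate 2). Without the filter on low counts both were lost (adjusted p 0.0656 and 0.138). DESeq2 gave 0.0593 for the second and RLE scaling 0.051. With PD0325901 the change was -0.19 (adjusted p 0.136), or -0.24 (adjusted p 0.0487) without the batch 2 libraries. PI103 exceeded PD0325901 by 0.46 (adjusted p 0.000968) and oxozeaenol by 0.34 (adjusted p 0.0123).

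**Figure D3:**
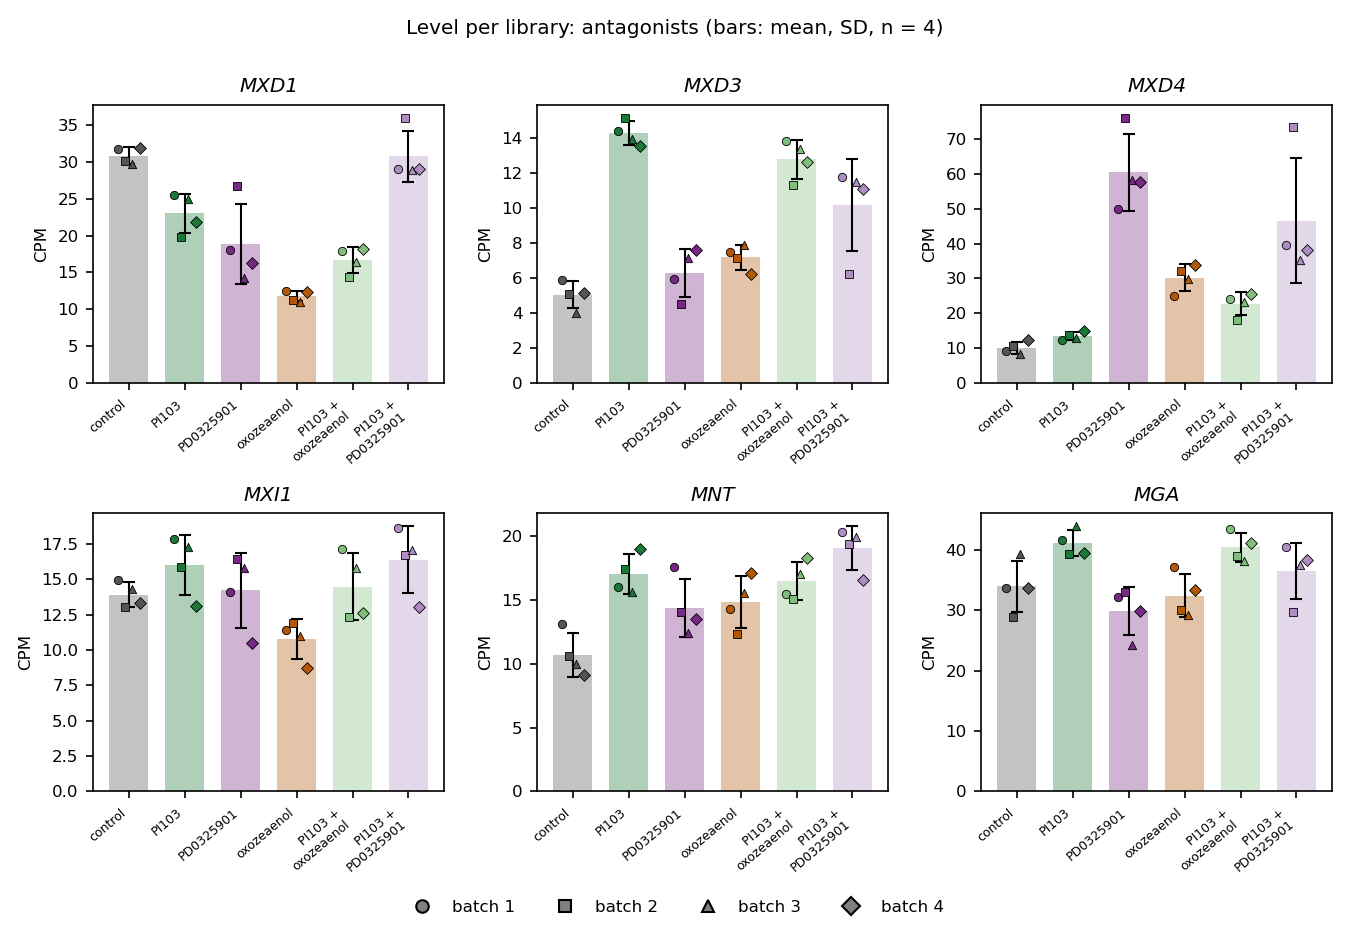
CPM of the 6 antagonists in each library (points, shaped by batch) with the group mean (bar) and SD (n = 4), by group on the horizontal axis. MXD4 is highest with PD0325901, MXD3 is highest with PI103, and the batch 2 library of PI103 with PD0325901 stands apart in MXD1 (36.0 CPM), MXD3 (6.22 CPM) and MXD4 (73.6 CPM).

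The batch 2 libraries of the 2 groups with PD0325901 departed from their groups in the same direction for 6 members. They held the highest MXD4 (76.2 CPM with PD0325901 and 73.6 CPM in the combination) and MXD1 (26.7 and 36.0 CPM) of their groups. MAX was also highest in them (58.3 and 57.4 CPM). They held the lowest MXD3 (4.50 and 6.22 CPM), MYC (67.5 and 98.3 CPM) and MLX (45.5 and 39.3 CPM). In the other 4 groups the batch 2 library was not at these extremes for MYC, MXD1 and MXD4. It did hold the lowest MXD3 and the highest MAX with PI103 and oxozeaenol, and the lowest MLX with oxozeaenol.

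On the RPKM scale the transcripts of the network can be set against each other. The lengths are of all annotated exons merged, 3001 bases for MYC and 4607 (MXI1) to 7058 (MXD4) for the MXD genes. The size of the ratios and shares depends on these lengths. MYC exceeded the sum of MXD1, MXD3, MXD4 and MXI1 by a ratio of 9.38, 9.75, 8.44 and 10.3 in the control libraries. With PD0325901 the ratio was 2.40, 1.16, 2.15 and 2.07, and with PI103 and PD0325901 it was 2.54, 1.57, 2.57 and 2.33. PI103 gave 4.07 ± 0.286, oxozeaenol 4.04 ± 0.547 and PI103 with oxozeaenol 4.57 ± 0.501 (SD, n = 4 each). All treated libraries lay below all controls. The ratio is a description of RNA from members already shown and carries no test. Its fall came with different MXD totals. The MXD sum was 10.3 ± 0.465 RPKM in control and 9.87 ± 0.356 RPKM with oxozeaenol, against 15.9 ± 2.44 RPKM with PD0325901 and 17.0 ± 2.71 RPKM with PI103 and PD0325901 (SD, n = 4 each). The ratio of MYC to MAX was 6.36 ± 0.647 in control and lowest with PD0325901 at 2.47 ± 0.505 (SD, n = 4 each).

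The makeup of the MXD sum also changed. MXD1 made up 47.3% ± 0.512 of it in control (SD, n = 4) and 18.5% ± 3.05 with PD0325901 (SD, n = 4). MXD4 made up 13.9% ± 2.00 in control, 54.0% ± 2.84 with PD0325901, 43.3% ± 4.72 with oxozeaenol and 38.0% ± 8.03 with PI103 and PD0325901 (SD, n = 4 each). In the last group the batch 2 library stood at 49.8% and the others between 32.2% and 36.2%. With PI103 MXD4 stayed at 16.3% ± 2.28, while MXD3 rose from 9.46% ± 1.15 in control to 23.5% ± 1.57 (SD, n = 4 each). By mean share MXD1 led in control and, by little, with PI103 (30.7% against 29.5% for MXI1). MXD4 led in the other 4 groups, with PI103 and oxozeaenol by little (28% against 27.4% for MXI1).

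**Figure D4:**
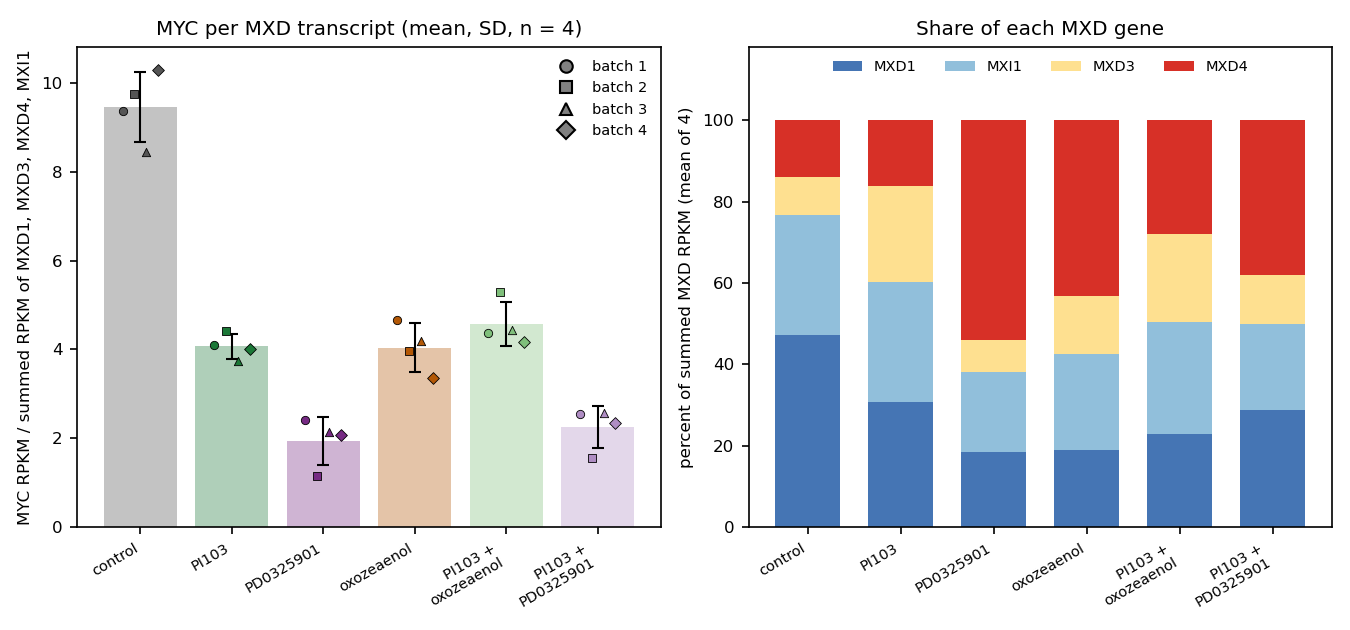
Left, MYC RPKM divided by the summed RPKM of MXD1, MXD3, MXD4 and MXI1 in each library (points, shaped by batch), with mean and SD (n = 4). Right, mean percent of that sum contributed by each MXD gene, with MXD4 at 13.9% in control and 54.0% with PD0325901.

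The combinations were set against their single agents, at different doses as said above. Against oxozeaenol, PI103 with oxozeaenol differed in 7 of the 10 genes (6 up, 1 down), where 14.9% of all genes differed (7.59% up, 7.28% down). MYCN was higher by 1.32 (adjusted p 2.98e-05), MXD3 by 0.83 (adjusted p 0.00116), MXD1 by 0.51 (adjusted p 0.0118), MXI1 by 0.43 (adjusted p 0.0397), MYC by 0.39 (adjusted p 0.0226) and MGA by 0.32 (adjusted p 0.0456), and MLX fell by 0.43 (adjusted p 0.00266). MYCN, MXD3 and MLX kept the call in each of the 24 fits made without 1 library. The MGA call was lost in 16 of them (adjusted p up to 0.147) and the MXI1 call in 5 (adjusted p up to 0.19). The MYC call was lost in 3 (adjusted p up to 0.0855) and the MXD1 call in 1 (adjusted p 0.0501). The count of 7 dropped to 3 without replicate 1 of the combination, and to 4 without its replicate 3 or without oxozeaenol replicate 4. Against PI103, the same combination differed in 2 genes (1 up, 1 down), where 18.3% of all genes differed (9.39% up, 8.92% down). MXD4 was higher by 0.76 (adjusted p 0.00506) and MXD1 fell by 0.46 (adjusted p 0.0153). The MXD1 call was lost without PI103 replicate 1 (-0.41, adjusted p 0.0581) or 3 (-0.42, 0.0543) or the combination's replicate 2 (-0.39, 0.0613), and the count was 4 with the batch as a block.

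PI103 with PD0325901 differed from PD0325901 in 6 genes (5 up, 1 down), where 18.1% of all genes differed (8.06% up, 10% down). MYCN was higher by 0.85 (adjusted p 0.00226), MXD3 by 0.69 (adjusted p 0.00483) and MNT by 0.41 (adjusted p 0.0198), next to MXD1 and MYC described above, and MLX fell by 0.43 (adjusted p 0.00227). The MNT call was lost without replicate 1 (0.37, adjusted p 0.0654) or 3 (0.39, 0.0505) of the combination or replicate 3 (0.34, 0.0899) or 4 (0.38, 0.0557) of PD0325901. MGA lay 0.29 above PD0325901 (adjusted p 0.0574, and 0.0365 with the batch as a block), and by 0.43 (adjusted p 0.00598) without the batch 2 libraries. Against PI103 the combination differed in 5 genes (2 up, 3 down), where 38.7% of all genes differed (18.8% up, 19.9% down). MXD4 was higher by 1.79 (adjusted p 8.26e-08), MXD1 by 0.42, and MYC fell by 0.36 (adjusted p 0.0153), MXD3 by 0.49 (adjusted p 0.0173) and MYCN by 0.61 (adjusted p 0.00757). Only 2 of the 5, MXD4 and MYCN, were called without replicate 2 of the combination.

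Between single agents, 6 members differed for PI103 against PD0325901 (4 up, 2 down), where 44.5% of all genes differed (21.7% up, 22.9% down). For PI103 against oxozeaenol 7 differed (5 up, 2 down), against 43.1% of all genes (20.6% up, 22.5% down). For oxozeaenol against PD0325901 5 differed (2 up, 3 down), against 28.5% (13.4% up, 15.1% down). In the last comparison MXD1 fell by 0.68 (adjusted p 0.00061), MXD4 fell by 1.0 and MXI1 fell by 0.40 (adjusted p 0.0349), while MYC was higher by 0.41 (adjusted p 0.00879) and MLX by 0.36 (adjusted p 0.0048). Without PD0325901 replicate 2 the calls for MYC (0.28, adjusted p 0.0784) and MXI1 (-0.35, adjusted p 0.114) were lost. The MXI1 call was also lost without PD0325901 replicate 3 (-0.34, 0.0985), oxozeaenol replicate 3 (-0.41, 0.0604) or oxozeaenol replicate 4 (-0.31, 0.121).

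Genes that MYC is known to raise were taken from a list of 40, of which 38 were tested. This list and those below were drawn up with earlier results of these data known. EIF4A1 was listed at 0 in every library and CCND2 at up to 5 counts. Of the 38, 27 fell and 5 rose with PI103, 28 fell and 1 rose with PD0325901, and 21 fell and 6 rose with oxozeaenol. In the pairs 26 fell and 6 rose (PI103 with oxozeaenol), and 31 fell and 1 rose (PI103 with PD0325901). Over all genes 25.2%, 29.9%, 26.1%, 27.9% and 32.6% fell in these 5 comparisons. The median log2 change of the list was -0.58, -0.80, -0.39, -0.51 and -1.18, against 0.02, -0.02, 0.02, 0.02 and 0.01 over all genes. HK2, which phosphorylates glucose at the start of glycolysis, fell by 2.09 with PI103, 2.20 with PD0325901, 1.47 with oxozeaenol and 3.04 with PI103 and PD0325901, from 109 ± 7.08 CPM in control to 13.2 ± 2.37 CPM in the last group (SD, n = 4 each). SHMT2, the mitochondrial serine hydroxymethyltransferase, fell by 1.96 with PI103 and by 2.49 with PI103 and PD0325901. NOP2, an rRNA methyltransferase of ribosome assembly, fell by 0.74 to 1.55 over the 5 treatments. For these 3 genes every adjusted p was at most 5.8e-06. ODC1, which starts polyamine synthesis, fell in the 4 treatments other than oxozeaenol, where its difference was under 0.01 in size (adjusted p 0.99).

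The order of the treatments by list median was not that of their mean MYC RNA. Mean MYC was lowest with PD0325901 alone, and the list's median was lowest with PI103 and PD0325901. MYC differed between these 2 groups by 0.32 (adjusted p 0.049). That call was lost in 20 of the 24 fits made without 1 library, and without the batch 2 libraries (adjusted p 0.0726). The pairs also held lower doses of each agent than the single treatments. PI103 with oxozeaenol had the highest mean MYC among the treated groups, 0.39 above oxozeaenol alone (adjusted p 0.0226, lost in 3 of the 24 fits). Its list median was -0.51, below the -0.39 of oxozeaenol alone. These medians were set side by side without a test, and whether the list followed MYC RNA was not tested.

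Genes that MYC is known to repress moved in both directions. Of 14 listed, 13 were tested, and 3 rose and 5 fell under PI103, 7 rose and 5 fell under PD0325901, and 4 rose and 5 fell under oxozeaenol. In the pairs 5 rose and 5 fell (PI103 with oxozeaenol), and 8 rose and 4 fell (PI103 with PD0325901). The list medians were 0.08, 0.40, -0.08, 0.07 and 0.34. Over all genes 26.2%, 28.7%, 25.7%, 27.7% and 32.2% rose. CDKN1C, which encodes the cyclin-dependent kinase inhibitor p57, rose by 4.37 (SE 0.30, adjusted p 2.96e-11) with PD0325901, from 0.962 ± 0.241 CPM to 20.2 ± 10.4 CPM (SD, n = 4 each; 12.7 to 35.6 CPM), and by 1.67 to 3.26 in the other 4 treatments. The stress gene GADD45A fell by 2.45 with PI103, 1.92 with PD0325901 and 1.80 with oxozeaenol, and GADD45B fell by 0.37, 1.88 and 1.87. CDKN2B, which encodes the CDK4 inhibitor p15, rose by 0.60 with PD0325901 and fell by 1.01 with oxozeaenol.

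**Figure D5:**
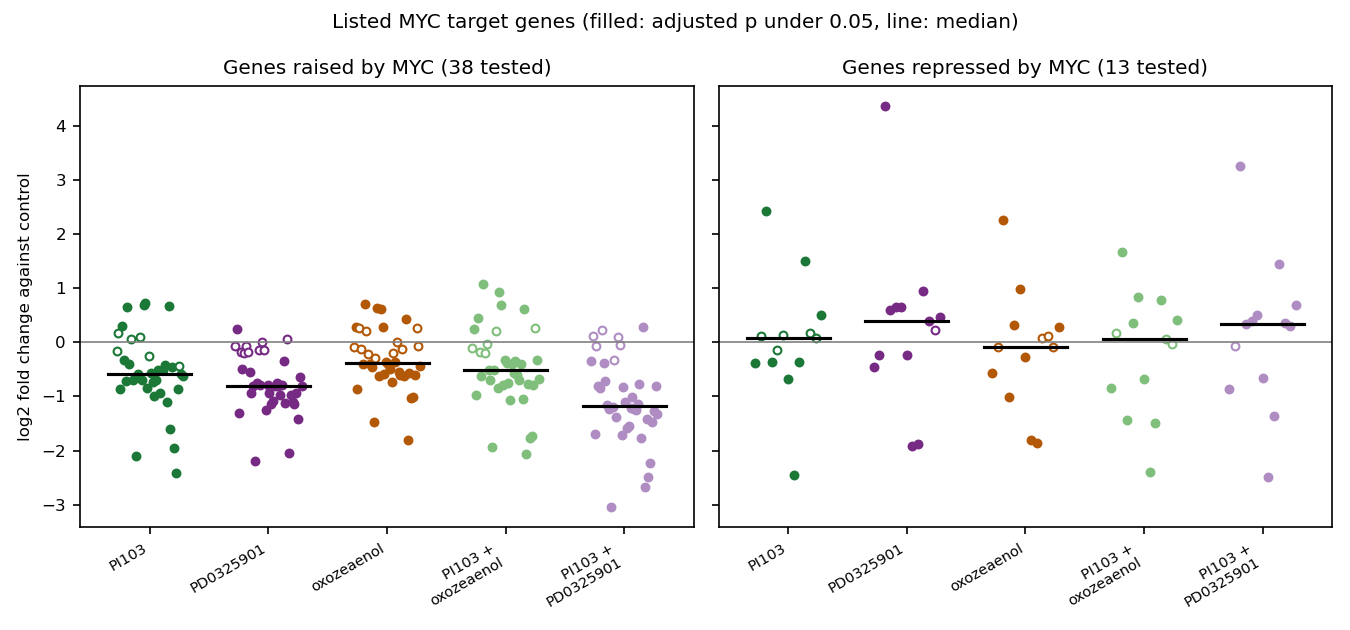
Log2 fold change against control of 38 genes that MYC is known to raise (left) and 13 that it is known to repress (right) in the 5 treatments, 1 point per gene, filled for an adjusted p under 0.05, with the median as a line. The left panel lies mostly below 0, with the lowest median (-1.18) for PI103 with PD0325901, and the right panel is spread on both sides of 0.

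On the MLX side, the MondoA and MLX targets TXNIP and ARRDC4, arrestins that restrain glucose uptake, fell in all 5 treatments. TXNIP fell by 3.24 (SE 0.24, adjusted p 1.86e-10) with oxozeaenol, from 461 ± 39.6 to 48.7 ± 14.8 CPM (SD, n = 4 each), by 2.81 with PD0325901 and by 1.72 with PI103. ARRDC4 fell by 1.85 with oxozeaenol, 1.83 with PI103 and 1.5 with PD0325901. MLX itself lay within the control range with oxozeaenol. Of the other E-box factors, MLXIP (MondoA) was called in no treatment, with changes between -0.14 and 0.21. MLXIPL (ChREBP) rose by 2.25 with oxozeaenol (adjusted p 1.91e-05) and by 1.46 with PD0325901, at levels of only 3.08 ± 1.37 CPM and 1.78 ± 0.410 CPM (SD, n = 4 each). TCFL5 rose in all 5 treatments, by 0.49 to 0.85. MYCL, listed under its older symbol MYCL1, rose by 0.44 (adjusted p 0.0164) with PI103, and its changes in the others lay between 0.22 and 0.33. USF1 rose by 0.46 under PD0325901 and by 0.18 (adjusted p 0.0329) in its pair with PI103, and USF2 was called in none.

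The partners that carry out activation and repression were counted against the 51.4%, 58.6%, 51.9%, 55.6% and 64.8% of all genes that changed under PI103, PD0325901, oxozeaenol and the pairs with oxozeaenol and with PD0325901. A share near these is no result about a list. Of 16 MYC coactivators and chromatin partners, 5 fell and 2 rose with PI103, and 9 fell and none rose with PD0325901. Under oxozeaenol 7 fell and none rose, in its pair with PI103 8 fell and none rose, and in the pair of PI103 and PD0325901 8 fell and 1 rose. The list medians were -0.12, -0.24, -0.20, -0.16 and -0.25 in the order above. The ATPases RUVBL1 and RUVBL2 of the TIP60 and INO80 complexes and the elongation factor PAF1 fell in all 5, RUVBL1 by 0.66 to 1.11 and RUVBL2 by 0.36 to 0.90. Of 13 MXD corepressor genes, 3 or 4 rose and 1 to 4 fell in each treatment, with medians of 0.05, 0.10, 0.05, 0.09 and 0.02. SIN3A, the scaffold that binds the MXD proteins, rose in all 5, by 0.69 (adjusted p 2.53e-06) with PI103 and by 0.28 (adjusted p 0.0211) with oxozeaenol, and RBBP4 rose by 0.23 to 0.54. ING1 fell by 0.98 with PD0325901 and by 0.81 with oxozeaenol and changed by -0.17 (adjusted p 0.0917) with PI103. HDAC1 rose by 0.34 (adjusted p 0.0012) with PI103, and its changes in the other 4 treatments, between 0.02 and 0.16, did not pass the test. Of 12 genes of the MGA complex, 6 fell and 2 rose with PI103, 4 fell and 1 rose with PD0325901, and 3 fell and 4 rose with oxozeaenol. In the pairs 5 fell and 4 rose (PI103 with oxozeaenol), and 6 fell and 2 rose (PI103 with PD0325901). The medians were -0.17, -0.05, 0.04, 0.01 and -0.23. RYBP fell by 0.57 to 0.82 and YAF2 by 0.40 to 0.96 over the 5 treatments, while EHMT2, a histone methyltransferase, rose by 0.53 to 0.75. PCGF6 fell in 4 of the 5 and changed by -0.09 (adjusted p 0.349) with oxozeaenol.

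Of 18 genes that act on the stability of the MYC protein, 4 fell and 3 rose with PI103, 8 fell and 4 rose with PD0325901, and 6 fell and 2 rose with oxozeaenol. In the pairs 5 fell and 2 rose (PI103 with oxozeaenol), and 8 fell and 3 rose (PI103 with PD0325901). The medians were 0.06, -0.10, -0.08, -0.07 and -0.22, and the share that changed is read against the same shares of all genes as above. PIM1, a kinase that stabilises MYC, fell by 2.67 (SE 0.16, adjusted p 5.99e-13) with PD0325901, by 1.36 with oxozeaenol and by 0.54 with PI103. USP36, a nucleolar deubiquitinase of MYC, fell by 0.94 with PD0325901 and by 0.29 to 0.91 in the other 4. PPP2R5A, a phosphatase subunit that acts on MYC, rose by 0.58 with PD0325901 and 0.39 with oxozeaenol and changed by 0.18 (adjusted p 0.0519) with PI103. The ubiquitin ligase gene FBXO32 rose by 1.13 with PI103 and by 1.5 with PI103 and PD0325901 and fell by 0.66 with oxozeaenol, at levels of 0.963 to 4.36 CPM.

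For each member the gene with the most similar log2 CPM over the 24 libraries was looked up among 10039 genes with a mean of at least 5 CPM (10040 for MYCN). For MYC these were TES (Pearson r = 0.959), LYPD1 (0.955) and SHB (0.954). The highest single value was MXD4 with TJP3 (0.982), followed by MYCN with ZNF395 (0.964), MLX with FLAD1 (0.954), MAX with ATF6 (0.953), MXD3 with LRP5 (0.944) and MXD1 with HEG1 (0.934). MNT with PIEZO1 (0.912), MGA with TMEM2 (0.902) and MXI1 with CAPNS1 (0.877) were lower. These values describe the same 6 groups and libraries, are the highest of a large search and carry no p.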

How the data were processed

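RNA was sequenced in 24 AGS samples with a stranded mRNA kit from 0.8 µg of total RNA, per the labels. The authors deposited whole-number counts per gene symbol. The build was GRCh38 per the submitters' processing notes. The aligner, counter, annotation and use of strand are not given in the sources used here. Of all tallied reads per library, 4.24% to 8.57% had no feature, 1.57% to 2.01% were ambiguous and 4.64% to 6.06% were not unique. These were left out, so genes with near-identical copies are uncertain. Groups came from the titles.

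The filter was filterByExpr, which kept 13947 of 23368 genes and 99.989% of counts. Scaling was by TMM and the fit was made in edgeR 4.0.16 under R 4.3.3 (robust quasi-likelihood F test, 1 coefficient per group, all 24 libraries). Within each of 12 contrasts the Benjamini-Hochberg adjustment ran over all genes tested. The SE is the absolute log2 fold change over the square root of F. The 95% intervals are normal approximations from this SE, so they are somewhat narrower than the F test implies. CPM use TMM-scaled totals, and RPKM and overlaps use GENCODE 29 exons. The fit was tested on simulated data. The members and gene lists were chosen with earlier results of these data known. All 10 members are named, and at most 4 genes per list (those with the smallest adjusted p) or every gene of a list of 6 or fewer, except 1 gene that is not reported here. The neighbours RAB24, PRELID1, PSMC3IP and the genes that failed the filter were named after their values were seen.

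The batch number of the labels pairs the samples. Deviations from group means correlated by 0.12 on average over 60 pairs of the same batch (positive in 47). The average was -0.04 over 180 pairs of different batches. Because deviations cancel within each group, this value largely follows from the first and is no separate comparison. Alternatives were RLE scaling, DESeq2 1.42.0, no filter, a filter at a mean of 1 CPM, the batch as a block, and leaving out each library. Leaving out the batch 2 libraries of both PD0325901 groups was added after the data had been seen.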

Additional observations from a re-analysis of the deposited data

Results flagged for a closer look

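Levels of the 10 genes were checked in all 60 groups of 4 libraries for a library whose gap to its nearest neighbour exceeded Dixon's 95% critical share of the group's range. This found 4 values in the 60 groups, little above the rate of about 1 in 20 groups that chance gives. The values of 3 genes come from the batch 2 library of PI103 with PD0325901. It held 36.02 CPM of MXD1 where the other 3 libraries held 28.9 to 29.1, 6.216 CPM of MXD3 where they held 11.1 to 11.8, and 73.58 CPM of MXD4 where they held 35.2 to 39.5. The fourth is MYCN in PI103 replicate 1, at 4.028 CPM, where the other libraries of the group held 5.24 to 5.48.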

How the results depend on the processing

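For the 120 changes of single members, direction and side of the threshold were the same in 117 with RLE scaling, 117 with DESeq2, 115 without a filter, 115 with the stricter filter, 112 with the replicate block and 104 without the batch 2 libraries of both PD0325901 groups. The replicate block gave 8 further calls, each printed beside its result, and changed no other call of a member. For PI103 with oxozeaenol against PI103 the count of members called was 4 with the replicate block and 4 without the batch 2 libraries, where all libraries gave 2, and leaving out single libraries gave 1 (without PI103 replicate 1 or 3 or PI103_oxozeaenol replicate 2) to 4 (without PI103_PD0325901 replicate 2). Leaving out single libraries gave counts of 3 to 8 for PI103 with oxozeaenol against oxozeaenol, 2 to 5 for PI103 with PD0325901 against PI103 and 3 to 6 for oxozeaenol against PD0325901 (3 without PD0325901 replicate 2).

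Changes of sign were confined, among the settings run, to uncalled differences near 0. They were MXI1 with PD0325901 (-0.0459) and USF2 with PD0325901 (0.0105) without the batch 2 libraries, where MAX for PI103 against PD0325901 was 0.02 and MYCN for oxozeaenol against PD0325901 was 0.0756. ODC1 with oxozeaenol was 0.0111 with the stricter filter and 0.0042 without the batch 2 libraries. MXD1 with PI103 and PD0325901 was 0.0247 with the stricter filter. Without a filter MLX with oxozeaenol was -0.0001 and HDAC1 with PI103 and PD0325901 was -0.0028. In fits made without 1 library, these ranges of log2 change against control crossed 0. For PD0325901 they were MXI1 -0.0266 to 0.151 and USF2 -0.0694 to 0.0368. For oxozeaenol they were ODC1 -0.0306 to 0.047, HDAC1 -0.0101 to 0.1201, MGA -0.1431 to 0.0176 and MLX -0.0124 to 0.1164. For PI103 with oxozeaenol they were MXI1 -0.0342 to 0.1274 and USF2 -0.0744 to 0.0063. For PI103 with PD0325901 they were MXD1 -0.0905 to 0.0221, MLXIP -0.0088 to 0.0791 and HDAC1 -0.0111 to 0.0378. Between treatments the ranges that crossed 0 were as follows. For PI103 with oxozeaenol against PI103 they were MGA -0.0543 to 0.0123 and MNT -0.1016 to 0.0101. For PI103 with oxozeaenol against oxozeaenol they were MAX -0.0694 to 0.025. For PI103 with PD0325901 against PI103 they were MXI1 -0.055 to 0.123. For PI103 against PD0325901 they were MAX -0.0715 to 0.0323. For oxozeaenol against PD0325901 they were MYCN -0.1408 to 0.0471 and MNT -0.0375 to 0.129.

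Over all genes, leaving out a library changed a count by over 1.5 times in 3 contrasts. It took 2074 calls for PI103 with oxozeaenol against oxozeaenol to 1050 (without PI103_oxozeaenol replicate 1), 1312 (without oxozeaenol replicate 3) or 1347 (without PI103_oxozeaenol replicate 3), 2521 for PI103 with PD0325901 against PD0325901 to 1385 (without PD0325901 replicate 3) or 1531 (without PI103_PD0325901 replicate 1), and 3976 for oxozeaenol against PD0325901 to 2385 (without PD0325901 replicate 2). Precision is limited by 4 libraries a group and, for MYCN, by 36 counts in the lowest library.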
